A study of Mus musculus with 2 samples.

Results

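The genes described here encode the subunits of oxidative phosphorylation, the enzyme complexes of the inner mitochondrial membrane that pass electrons from nutrients to oxygen and make ATP. They were chosen by the start of their symbols (Nduf followed by a, b, c, s or v, Cox4i, Cox5, Cox6, Cox7, Cox8, Uqcr, Atp5, mt-Nd, mt-Co, mt-Cytb and mt-Atp) and by a minimum of 20 unique molecular identifiers (UMIs, the count of captured RNA molecules) over both libraries. The prefixes matched 102 of 31053 listed genes, and 100 passed the minimum, among 15889 genes that passed it. Cox8c, with 1 UMI, and a second identifier of Atp5o, with 0, did not pass. By what their products do, the 100 members comprised 70 nuclear-encoded subunits (36 of complex I, 8 of complex III, 11 of complex IV and 15 of complex V), 13 mitochondrially encoded subunits, 8 complex I assembly factors, 7 tissue-specific isoforms, the supercomplex factor Cox7a2l and Atp5s, which is not a subunit. The 87 nuclear members lay on 19 chromosomes.

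Complex I (NADH dehydrogenase) and complex III (the cytochrome bc1 complex) hand electrons on to complex IV (cytochrome c oxidase), and all 3 pump protons across the inner membrane. Complex V, the ATP synthase, lets the protons flow back through its membrane ring and makes ATP. Each of these complexes mixes a few catalytic or membrane subunits encoded in mitochondrial DNA with many encoded in the nucleus, so both genomes have to be expressed for assembly. Perivascular fat can hold thermogenic adipocytes, which are rich in mitochondria, and some cytochrome c oxidase subunits have second isoforms used in muscle, brown fat, lung or testis.

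The material was fat dissected from around the aorta of wild-type mice, labelled as primary perivascular stromal cells, with 1 library from young and 1 from old animals. Both had been digested with 0.2% collagenase for 45 min at 37 °C, strained at 70 μm and treated to lyse red blood cells, a preparation made for stromal cells, so that the adipocytes described here are those that came through it. The sources used here give neither the age of the mice in numbers nor how many there were, their sex or whether cells were cultured. With 1 library per age, age and library cannot be told apart, no test between ages is possible, and every interval below is an exact 95% interval that covers counting error only. The young library held 13104 barcodes (130398999 UMIs, median 9044.5 per barcode) and the old 14636 (147166475 UMIs, median 9108), and 275 barcode sequences occurred in both. After filtering, 11453 young and 12207 old cells remained.

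Cells were sorted into classes by marker genes, none of which is a member. Mesenchymal cells (stroma with collagens, Dcn and Pdgfra) made up 10421 young and 10253 old cells. Any smooth muscle cells or pericytes with these markers fell in this class, because neither had a class of its own. Blood endothelial cells numbered 37 and 1190, mesothelial cells 394 and 83, Schwann cells 91 and 95, macrophages 1 and 100, adipocytes 8 and 112 and striated muscle cells 0 and 14. Summed over the class, UMIs of all 8 adipocyte markers were found in old adipocytes. Together they made 3146.1 UMIs per 1000000 UMIs of the class (CPM) there and 10.3 CPM in old mesenchymal cells. Of the 112 old adipocytes, 105 held a UMI of Adipoq, the adipokine gene. The class was gated on these same markers, so these values describe the gate and are no separate evidence of identity. Cell cycle markers were at 322.6 CPM in the old adipocytes, 607 CPM in the 8 young ones and 789.8 CPM in the old mesenchymal cells. Mesenchymal markers were at 1264.2 CPM in the old adipocytes against 5340.8 CPM in the old mesenchymal cells. In mesothelial cells they made 4540.9 CPM young and 3916.6 CPM old, beside 1193.3 and 1116.5 CPM of mesothelial markers. In Schwann cells they made 2733.4 and 2878.3 CPM, beside 994.9 and 1281.8 CPM of Schwann markers. In blood endothelial cells they made 1344.0 and 1466.1 CPM, beside 2970.0 and 2354.7 CPM of blood endothelial markers. In old macrophages they made 1614.0 CPM. Smooth muscle markers were at 2442.0 CPM in young and 2276.7 CPM in old mesenchymal cells, of which Acta2 made 2008.8 and 1978.3 CPM. Levels below are CPM of all UMIs of a class, and they compare 1 gene or gene group between classes or libraries, not 1 gene with another. Shares of a gene among the UMIs of its pair or family also depend on how each transcript is captured. They too compare classes and libraries and do not measure true proportions of the isoforms.

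Between the libraries, the nuclear-encoded subunits of mesenchymal cells differed little. Summed, they reached 23609 CPM among young and 25067 CPM among old cells, a log2(old/young) of 0.086 (0.084 to 0.089). The sign of this difference was set by the scaling: with median-of-ratios size factors, which put the median gene of the class at 0 by lowering all log2 values by 0.12, it was -0.035. Complex I subunits went from 6940.4 to 7614 CPM (log2 0.13) and kept a positive sign under that scaling. Complex III was at 2765 and 2898 CPM (log2 0.067), complex IV at 7390.3 and 7710 CPM (log2 0.061), and complex V at 6513 and 6846 CPM (log2 0.072), and all 3 were negative under it (-0.055, -0.061 and -0.050).

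Gene by gene, 1 of the 70 nuclear subunits was at least 1.5-fold higher in old mesenchymal cells and 0 were lower by that much. Over all 86 nuclear members measured there, 3 were higher and 2 lower. Over all 15163 genes with at least 20 UMIs in the class, 19.8% were higher and 12.3% lower by 1.5-fold, 32.1% in either direction. Among the 2711 genes with at least 10000 UMIs the shares were 12.9% and 5.75%, and 0 of the 67 subunits at that depth passed either way. The median log2(old/young) over the 70 subunits was 0.14 (range -0.31 to 0.62), beside 0.13 over all genes, with 47 values above 0 and 23 below.

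**Figure D1:**
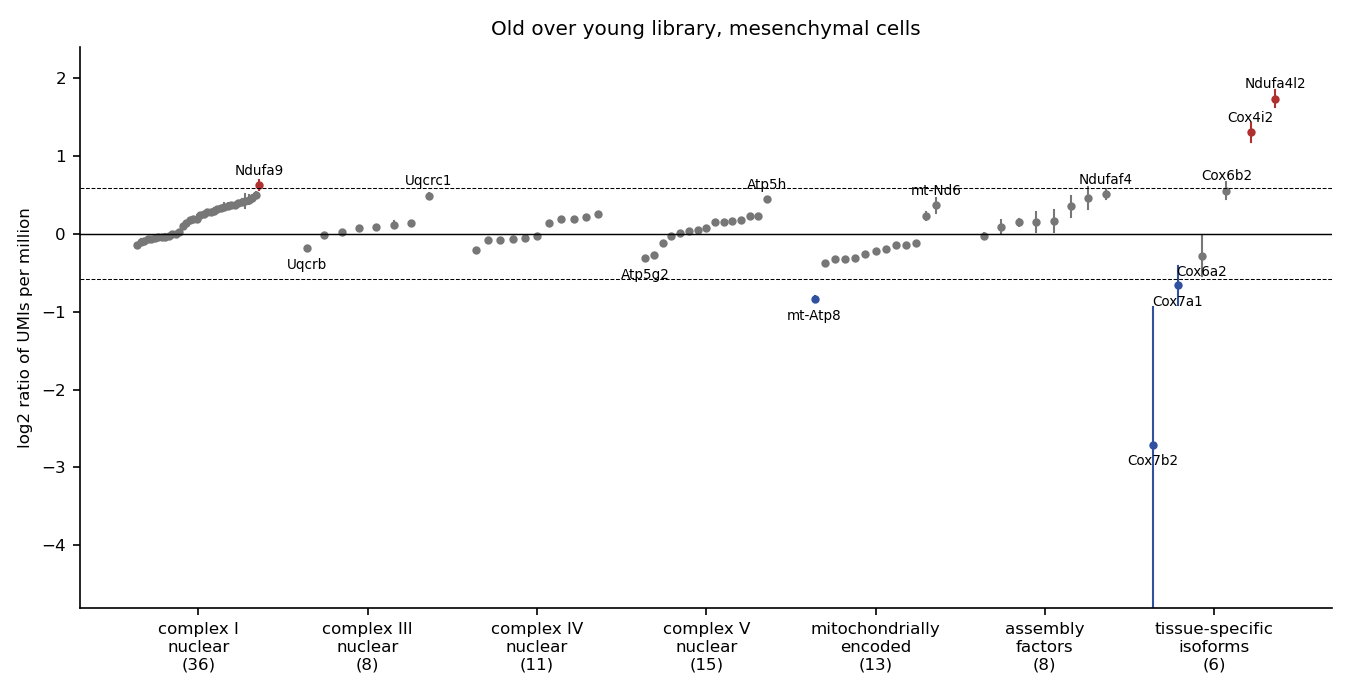
Each point is 1 member with at least 20 UMIs over both libraries in mesenchymal cells, placed by group (number of members in brackets); the vertical axis is log2 of the old over the young level in CPM, bars are exact 95% Poisson intervals, and dashed lines mark 1.5-fold. Nuclear subunits lay between -0.31 and 0.62, while Ndufa4l2 and Cox4i2 stood at 1.74 and 1.30 among the tissue-specific isoforms.

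Among complex I genes, Ndufa9, an accessory subunit beside the quinone site, was the member past 1.5-fold, at 29.8 CPM young and 46.0 CPM old (log2 0.62, 0.56 to 0.69), and it dropped below 1.5-fold under some settings (lowest log2 0.50). Ndufaf4, an assembly factor, followed at 36.3 and 51.9 CPM (log2 0.51). At the other end, the accessory subunits Ndufc1 (359 and 324 CPM, log2 -0.15) and Ndufa10 (108 and 100.3 CPM, log2 -0.11) were slightly lower in the old library. Of the 7 nuclear core subunits, which carry the flavin and iron-sulphur centres, Ndufv1 went from 35.6 to 48.3 CPM and Ndufs7 from 89.6 to 124 CPM, whereas Ndufv2 (111 and 107 CPM) hardly differed. The 8 assembly factors summed to 252 CPM young and 280 CPM old (log2 0.15), near the median of 0.13 over all genes.

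In complex III, Uqcrc1, a core-protein subunit, was at 88.9 CPM young and 125 CPM old (log2 0.49), and Uqcr10 at 403 and 443 CPM (log2 0.14). Uqcrb, which helps bind quinone, was at 266 and 234 CPM (log2 -0.19), and Uqcrfs1, the Rieske iron-sulphur protein, at 146 and 144 CPM (log2 -0.018). In complex IV the 11 common subunits spread from -0.21 for Cox7b (402 and 347 CPM) to 0.26 for Ndufa4 (547 and 654 CPM), a protein first assigned to complex I and now placed in complex IV. Cox7a2l, which helps join complexes III and IV, was at 531 CPM young and 426 CPM old (log2 -0.32).

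In complex V, the peripheral stalk subunit Atp5h was at 398 and 543 CPM (log2 0.45) and the catalytic beta subunit Atp5b at 465 and 548 CPM (log2 0.24). Atp5s, which is not a subunit, was at 5.27 and 4.10 CPM (log2 -0.36). The 3 genes Atp5g1, Atp5g2 and Atp5g3 encode the same mature c subunit of the rotating ring, behind different import sequences, and they moved apart: Atp5g2 had the lower level in old cells (525 and 423 CPM, log2 -0.31), Atp5g1 (534 and 592 CPM) and Atp5g3 (221 and 258 CPM) higher. Of the UMIs of the 3 genes, Atp5g2 made 41.0% in young and 33.2% in old mesenchymal cells, and Atp5g1 41.7% and 46.5%.

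The mitochondrially encoded subunits were lower in the old library as a group. They summed to 26633 CPM in young mesenchymal cells and 22799 CPM in old ones, a log2(old/young) of -0.22 (-0.23 to -0.22), and -0.21 with no limit on mitochondrial UMIs per cell. The 2 complex V genes differed most, from 5319 to 4083 CPM (log2 -0.38), against -0.20 for complex IV, -0.19 for the 7 complex I genes and -0.12 for mt-Cytb. By gene, 11 of 13 were below 0, beside a median of 0.13 over all genes, and 1 was at least 1.5-fold lower, beside 12.3% of all genes. That gene was mt-Atp8, at 158 and 88.0 CPM (log2 -0.84, -0.88 to -0.80), which overlaps mt-Atp6 on the mitochondrial genome, so that reads may be divided between them by the counting. mt-Atp6, the proton channel subunit, was at 5162 and 3995 CPM (log2 -0.37).

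The 3 oxidase genes had the same direction. mt-Co3 was at 6105 and 5125 CPM (log2 -0.25), mt-Co2, which accepts electrons from cytochrome c, at 2148 and 1880.5 CPM (log2 -0.19) and mt-Co1, the catalytic subunit, at 4722 and 4281 CPM (log2 -0.14). In complex I, mt-Nd1 (2870 and 2602 CPM) and mt-Nd4 (1306 and 1119.9 CPM) had log2 values of -0.14 and -0.22, and mt-Nd2, mt-Nd3 and mt-Nd5 lay between -0.33 and -0.32. mt-Cytb, the cytochrome b of complex III, was at 2939.9 and 2700.1 CPM. The exceptions were mt-Nd4l, which overlaps mt-Nd4 (53.3 and 62.6 CPM, log2 0.23), and mt-Nd6, which is encoded on the other strand (14.2 and 18.3 CPM, log2 0.37).

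The balance between the genomes shifted accordingly. For every nuclear-encoded subunit UMI, young mesenchymal cells held 1.13 mitochondrially encoded UMIs and old ones 0.91. The ratio went from 0.78 to 0.62 for complex I, from 1.76 to 1.46 for complex IV and from 0.82 to 0.60 for complex V. These ratios depend on how the 3′ chemistry captures each transcript, so that they compare classes and libraries and do not measure protein proportions. In Schwann cells the ratio was 1.03 young and 1.07 old, in mesothelial cells 0.93 and 0.89, and in blood endothelial cells 0.93 and 0.90.

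The tissue-specific isoforms were rare transcripts, and they held the widest differences between the libraries. Together they made 32.0 CPM in young and 64.1 CPM in old mesenchymal cells. Of the 6 isoforms with at least 20 UMIs, 2 were at least 1.5-fold higher and 2 lower. Ndufa4l2, a counterpart of Ndufa4 known as a hypoxia-responsive gene, had 795 UMIs (7.60 CPM) young and 2732 UMIs (25.3 CPM) old, a 3.34-fold difference (log2 1.74, 1.62 to 1.85). Cox4i2, the counterpart of Cox4i1 known from lung and from oxygen-sensing cells, had 774 UMIs (7.40 CPM) and 1970 UMIs (18.3 CPM), a 2.47-fold difference (log2 1.30, 1.18 to 1.43). Across all settings tried their log2 values stayed between 1.56 and 1.75 and between 1.18 and 1.32.

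A UMI of Ndufa4l2 was found in 5.48% of young and 14.5% of old mesenchymal cells, at median depths of 9109 and 9373 UMIs per cell. In Schwann cells, at medians of 7305 and 5125 UMIs, the shares were 1.10% and 1.05% (1 cell in each library). With each mesenchymal cell thinned to 1000 UMIs, leaving out 19 young and 11 old cells, the shares were 0.84% and 2.38%. For Cox4i2 the shares were 6.31% and 14.2% of mesenchymal cells, and 0.81% and 1.80% after thinning. Both genes made small shares of the UMIs counted for their pairs: Ndufa4l2 made 1.37% young and 3.73% old of the UMIs of Ndufa4l2 and Ndufa4, and Cox4i2 0.69% and 1.53% of those of Cox4i2 and Cox4i1.

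Markers of pericytes, the contractile cells on capillaries, were also higher in old mesenchymal cells, but not they alone. The 6 pericyte markers summed to 18.7 CPM in young and 41.3 CPM in old mesenchymal cells, of which Notch3 made 11.4 and 22.9 CPM. Macrophage markers were at 12.7 and 28.4 CPM and blood endothelial markers at 26.3 and 45.3 CPM. Adipocyte, lymphatic endothelial and lymphocyte markers were higher too. Mesothelial, Schwann, striated muscle, smooth muscle, cell cycle and mesenchymal markers were lower. In old mesenchymal cells the Ndufa4l2 level in non-mitochondrial CPM, that is, scaled to the UMIs of genes that are not mitochondrially encoded, was 22.7 in the 7582 cells with 0 pericyte markers detected, 32.1 with 1, 44.7 with 2 and 101 in the 35 cells with 3 or more. In young cells it was 7.62 with 0, 8.96 with 1 and 5.74 with 2, and 4 cells had 3 or more. Cox4i2 went from 15.6 to 41.6 over the same steps in old cells and was at 6.95 in young cells without a marker. The part of pericyte markers in the difference between the libraries was not tested. In cells without any of the 12 cell cycle markers Ndufa4l2 was at 39.3 old and 13.4 young, and in cells with 6 or more at 15.8 and 4.39.

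The other isoforms showed no common direction. Cox6b2, known from testis, was at 11.0 CPM young and 16.1 CPM old (log2 0.56, 0.45 to 0.66). Cox7a1, the isoform of heart, muscle and brown fat, was at 3.32 and 2.10 CPM (347 and 226 UMIs, log2 -0.66, -0.91 to -0.42). Cox6a2, the muscle isoform, was at 2.53 and 2.09 CPM. Cox7b2 had 19 UMIs young and 3 old, and Cox8b 1 and 18. With no mitochondrial limit, the adipocyte gene Adipoq had 22 UMIs in young and 353 in old mesenchymal cells. Whether the Cox8b UMIs came from adipocyte RNA was not tested.

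Old adipocytes had the highest level of these genes among the classes with at least 8 cells. In the old library the nuclear subunits made 48229 CPM in adipocytes and 25067 CPM in mesenchymal cells, 1.92-fold (log2 0.94, 0.93 to 0.96), and the mitochondrially encoded ones 56641 and 22799 CPM, 2.48-fold (log2 1.31). The limit of 10% mitochondrial UMIs, which acts on the measured quantity itself, removed 60 of 184 gated adipocytes (32.6%) and 136 of 11610 mesenchymal cells. With no limit, 165 adipocytes gave 2.03-fold for the nuclear and 3.49-fold for the mitochondrially encoded subunits. At a limit of 5%, the log2 ratios were 0.56 and 0.62, against 0.94 and 1.31 at 10%. The 8 young adipocytes, in which mesenchymal markers made 3129.7 CPM, were at 27333 and 38942 CPM, and young mesenchymal cells at 23609 and 26633 CPM. Of the other classes, the 14 striated muscle cells came nearest, at 1.44-fold and 1.69-fold the old mesenchymal level.

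**Figure D2:**
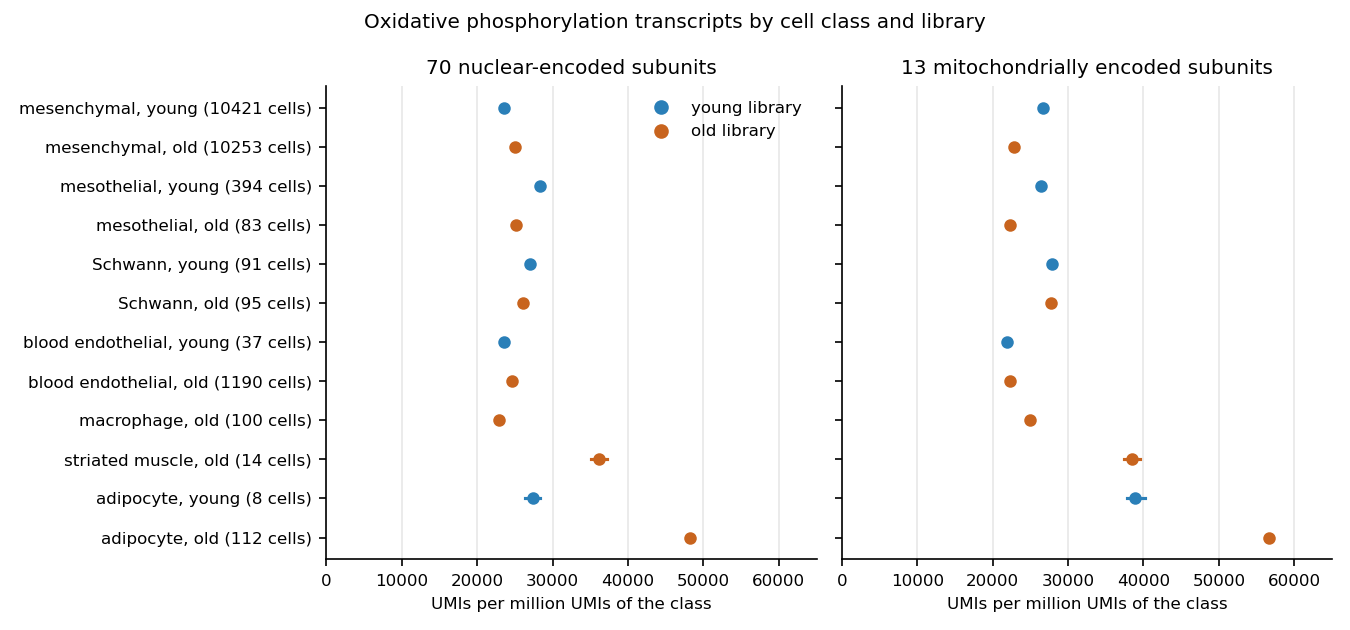
Summed level of the 70 nuclear-encoded (left) and the 13 mitochondrially encoded subunits (right) in CPM, with exact 95% Poisson intervals (bars, mostly within the points), for each class and library with the number of cells in brackets. Old adipocytes lay furthest right in both panels, at 48229 and 56641, and the other classes plotted, except striated muscle and the 8 young adipocytes, lay between 21952 and 28277.

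Every one of the 70 nuclear subunits was higher in old adipocytes than in old mesenchymal cells, 56 of them by at least 1.5-fold. Over the 5197 genes with the same UMI minimum, not matched in depth, 21% were higher and 25.2% lower by that much. Their median log2 ratio was -0.11, against 0.89 over the subunits. The complexes differed in degree. Complex III was 2.22-fold higher, complex IV 2.04-fold, complex I 1.89-fold and complex V 1.70-fold, and without the mitochondrial limit the order was the same (2.47, 2.18, 1.97 and 1.76). At least 1.5-fold were 8 of 8 subunits of complex III, 10 of 11 of complex IV, 29 of 36 of complex I and 9 of 15 of complex V.

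**Figure D3:**
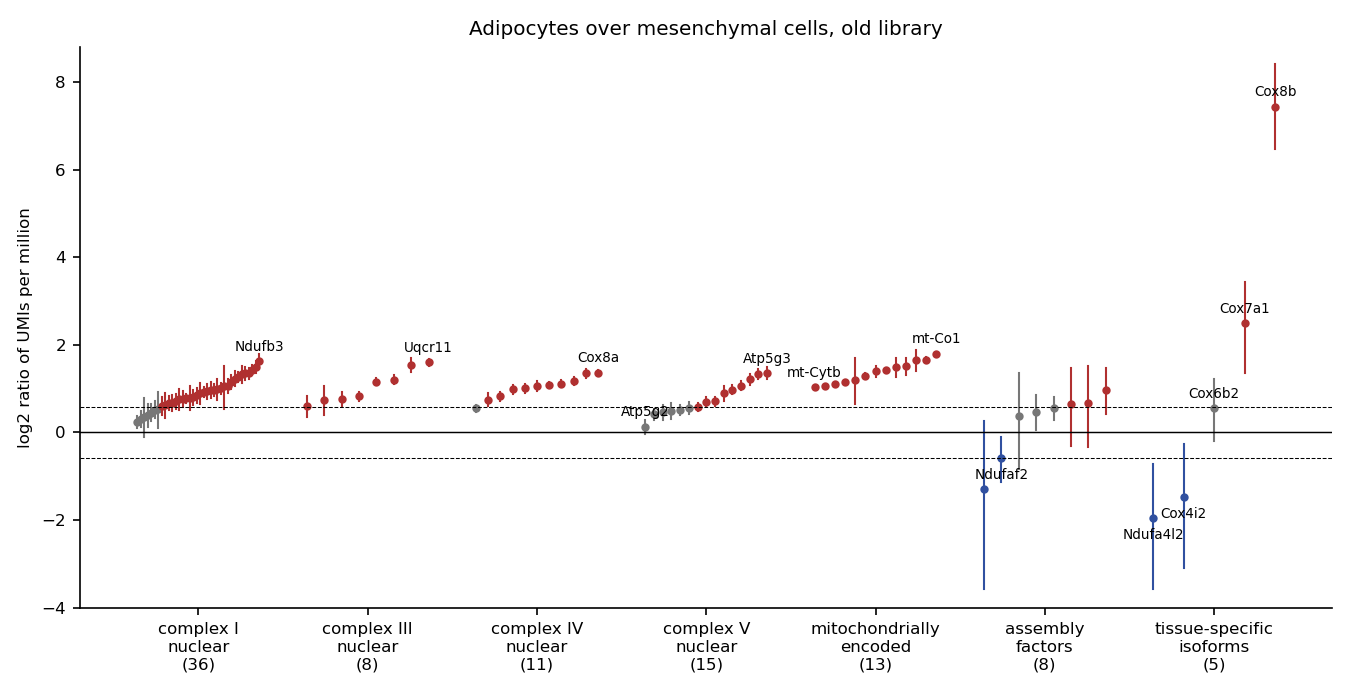
Each point is 1 member with at least 20 UMIs over both classes, placed by group (number of members in brackets); the vertical axis is log2 of the level in old adipocytes over that in old mesenchymal cells, bars are exact 95% Poisson intervals, and dashed lines mark 1.5-fold. All nuclear and mitochondrially encoded subunits lay above 0, assembly factors lay on both sides, and Cox8b stood highest at 7.43.

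The largest ratios among nuclear subunits belonged to Ndufb3, a membrane-arm subunit of complex I (129 CPM in mesenchymal cells and 397 CPM in adipocytes, log2 1.62, 1.45 to 1.78), Uqcr11 (505 and 1529 CPM, log2 1.60), Uqcrfs1 (144 and 421 CPM, log2 1.55) and Ndufv3 (237 and 666 CPM, log2 1.49). The smallest were Atp5g2 (423 and 462 CPM, log2 0.13, -0.03 to 0.28), the accessory complex I subunits Ndufa13 (496 and 586 CPM, log2 0.24) and Ndufa11 (289 and 358 CPM, log2 0.31). The assembly factors were 1.28-fold higher as a group, and the assembly factor Ndufaf2 was lower (63.3 and 42.0 CPM, log2 -0.59, -1.14 to -0.09). Cox7a2l was also lower (426 and 371 CPM, log2 -0.20, -0.37 to -0.03).

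The genes of the c ring divided here as well. Atp5g1 went from 592 CPM in mesenchymal cells to 1243 CPM in adipocytes and Atp5g3 from 258 to 661 CPM, while Atp5g2 hardly differed. As a share of the UMIs of the 3 genes in old adipocytes, Atp5g1 made 52.6% (50.2% to 54.9%), Atp5g2 19.5% (17.7% to 21.4%) and Atp5g3 27.9% (25.9% to 30.1%). In old mesenchymal cells they made 46.5%, 33.2% and 20.3%, and in old macrophages 38.5%, 41.3% and 20.1%. The 8 young adipocytes, with 29.7%, 41.3% and 29.0%, did not have the low Atp5g2 share.

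All 13 mitochondrially encoded subunits were at least 1.5-fold higher in old adipocytes than in old mesenchymal cells. mt-Co1 had the largest ratio, 4281 and 14908 CPM (log2 1.80, 1.77 to 1.83), and with no mitochondrial limit it was at 4375 and 24665 CPM. mt-Nd2 (592 and 1864 CPM) and mt-Nd4l (62.6 and 195 CPM) followed at 1.66 and 1.64. The lowest were mt-Cytb (2700.1 and 5528 CPM, log2 1.03), mt-Atp6 (3995 and 8294 CPM, log2 1.05) and mt-Nd1 (2602 and 5585 CPM, log2 1.10). By complex, complex IV was 2.75-fold higher, complex I 2.45-fold, complex V 2.09-fold and complex III 2.05-fold. The number of mitochondrially encoded UMIs per nuclear-encoded one was 1.17 in old adipocytes and 0.91 in old mesenchymal cells.

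Within adipocytes, the nuclear level went with the mitochondrial share of the cell. With neither limit nor doublet removal, and in non-mitochondrial CPM, nuclear subunits were at 27911 in the 6 old adipocytes with at most 2.5% mitochondrial UMIs and at 39262 in the 42 between 2.5% and 5%. They were at 57759 in the 76 between 5% and 10%, at 65403 in the 51 between 10% and 20% and at 58816 in the 9 above 20%. Old mesenchymal cells went the other way, from 26419 in 7267 cells at most 2.5% to 17228 in the 88 between 10% and 20% and 14340 in the 48 above it. In those same mesenchymal cells Malat1, an RNA retained in the nucleus, was at 20636 in the lowest and at 106866 in the highest bin. In old adipocytes Malat1 stayed between 19019 and 23843 over the 5 bins. Young mesenchymal cells showed the mesenchymal pattern too, with 24515 in the lowest bin and 15137 between 10% and 20%.

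**Figure D4:**
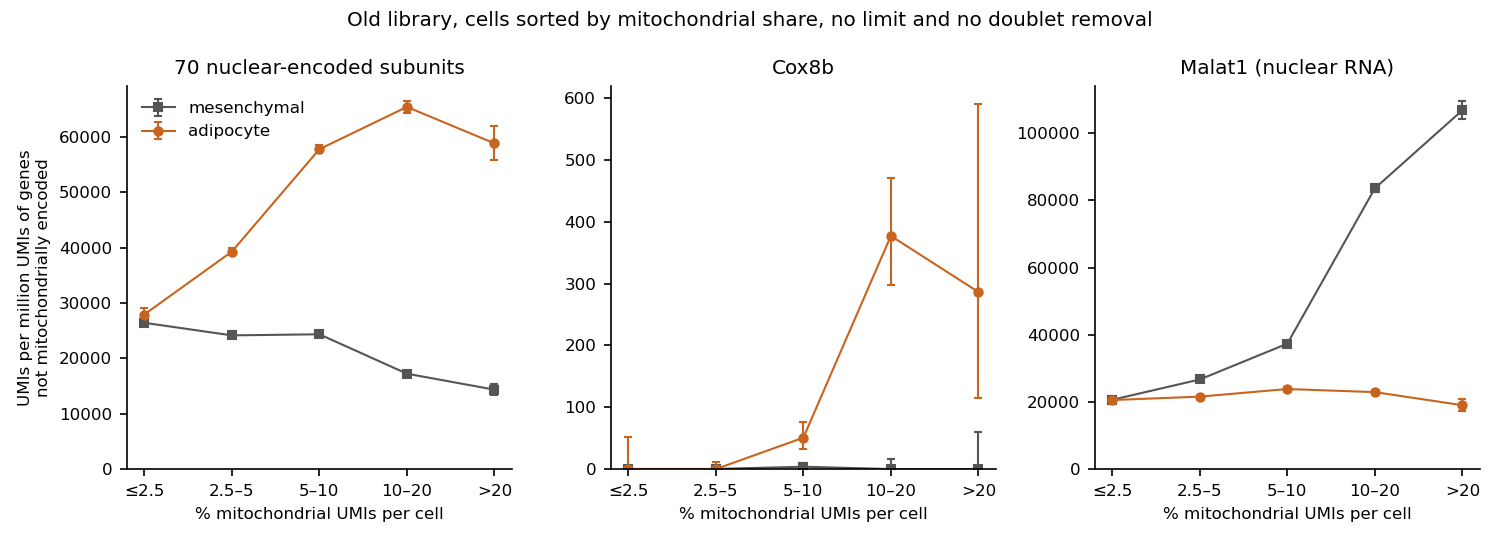
Old adipocytes (circles) and old mesenchymal cells (squares) divided by the percentage of mitochondrial UMIs per cell, with levels in non-mitochondrial CPM and exact 95% Poisson intervals, for the 70 nuclear subunits, Cox8b and Malat1. In adipocytes nuclear subunits went from 27911 to 65403 with Malat1 near level, and in mesenchymal cells nuclear subunits went down to 14340 while Malat1 went up to 106866.

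Cox8b (chr7:140898945-140900446, minus strand, mm10) is the subunit VIII isoform of heart, skeletal muscle and brown fat, the counterpart of the common Cox8a. It had 22 UMIs in 12 of 112 old adipocytes (28.9 CPM, 18.1 to 43.7) and 18 UMIs in 18 of 10253 old mesenchymal cells (0.167 CPM), a log2 ratio of 7.43 (6.47 to 8.42). A UMI was thus present in 10.7% of old adipocytes (median 6071 UMIs per cell) and in 0.176% of old mesenchymal cells (median 9373). Most Cox8b UMIs lay in cells that the mitochondrial limit removed. The 60 old adipocytes above the limit held 84 UMIs, and in the bins of mitochondrial share the level was 0 below 5%, 50.7 between 5% and 10%, 377 (298 to 471) between 10% and 20% and 286 above 20%, in non-mitochondrial CPM.

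These UMIs were unevenly spread over cells. With no limit, 105 UMIs lay in 33 of 165 old adipocytes, 19 of them in 1 cell, and the 5 highest cells held 45.7%. In the young library without the limit, 12 UMIs lay in 4 of 13 adipocytes, 9 of them in 1 cell. Ucp1, the uncoupling protein of brown fat, was found in 12 of 112 old adipocytes (23 UMIs, 30.2 CPM), but with neither limit nor doublet removal the 17 old adipocytes with a Ucp1 UMI held 2 Cox8b UMIs (24.0 non-mitochondrial CPM) and the 167 without one held 104 (105 non-mitochondrial CPM). Cox8b was also seen in 2 of 14 striated muscle cells (7 UMIs, 50.3 CPM). As a share of Cox8b and Cox8a together it made 1.20% (0.76% to 1.82%) in old adipocytes, 3.83% in striated muscle and 0.0182% in old mesenchymal cells.

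Cox7a1 (chr7:30184144-30186078, plus strand) had 9 UMIs in old adipocytes (11.8 CPM, 5.40 to 22.4) and 226 in old mesenchymal cells (2.10 CPM), a log2 ratio of 2.49 (1.35 to 3.44), and 4 UMIs in the 8 young adipocytes (37.9 CPM). Cox6a2 had 0 UMIs in the 112 old adipocytes, which allows up to 3.93 CPM at 3 UMIs, and 24 UMIs in 7 of 14 striated muscle cells (172 CPM, 111 to 257), where it made 29.3% (19.7% to 40.4%) of the UMIs of Cox6a2 and Cox6a1. Cox7a1 had 0 UMIs in those 14 cells, which allows up to 21.6 CPM at 3 UMIs, beside 133 UMIs of Cox7a2. Ndufa4l2 and Cox4i2 had 5 UMIs each in old adipocytes (6.56 CPM, 2.13 to 15.3), below their 25.3 and 18.3 CPM in old mesenchymal cells.

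Cox6b2 had 18 UMIs in old adipocytes (23.6 CPM, 14.0 to 37.3) and 16.1 CPM in old mesenchymal cells, a log2 ratio of 0.55 (-0.21 to 1.22). The promoters of Cox8b and Cox7a1, both at least 1.5-fold higher in old adipocytes than in old mesenchymal cells, and of their common counterparts are shown because the members of each pair differ in their letters. Each runs from 250 bases before to 50 bases after the start of the gene (RefSeq, GRCm38.p6), 5′ to 3′ on the gene's strand, with capitals for matches to TATAAA and to the ETS core CCGGAAG on either strand.
Cox8b, chr7:140900397-140900696, minus strand: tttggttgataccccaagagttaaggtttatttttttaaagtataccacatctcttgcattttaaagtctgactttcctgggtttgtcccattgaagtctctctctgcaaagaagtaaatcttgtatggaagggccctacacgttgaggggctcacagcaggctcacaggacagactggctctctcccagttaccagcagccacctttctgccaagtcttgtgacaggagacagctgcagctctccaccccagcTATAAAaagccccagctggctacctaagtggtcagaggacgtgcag
Cox8a, chr19:7217567-7217866, minus strand: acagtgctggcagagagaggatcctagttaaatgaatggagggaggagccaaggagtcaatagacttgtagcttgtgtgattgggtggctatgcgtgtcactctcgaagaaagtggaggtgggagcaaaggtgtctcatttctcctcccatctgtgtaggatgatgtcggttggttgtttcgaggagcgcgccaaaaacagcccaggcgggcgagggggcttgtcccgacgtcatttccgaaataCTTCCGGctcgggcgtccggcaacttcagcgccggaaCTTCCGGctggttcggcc
Cox7a1, chr7:30183921-30184220, plus strand: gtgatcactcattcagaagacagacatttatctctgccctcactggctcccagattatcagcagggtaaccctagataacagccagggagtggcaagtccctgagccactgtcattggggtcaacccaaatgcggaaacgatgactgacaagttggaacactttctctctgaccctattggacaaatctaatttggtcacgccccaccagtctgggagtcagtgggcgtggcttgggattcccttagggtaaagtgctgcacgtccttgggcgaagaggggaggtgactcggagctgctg
Cox7a2, chr9:79759804-79760103, minus strand: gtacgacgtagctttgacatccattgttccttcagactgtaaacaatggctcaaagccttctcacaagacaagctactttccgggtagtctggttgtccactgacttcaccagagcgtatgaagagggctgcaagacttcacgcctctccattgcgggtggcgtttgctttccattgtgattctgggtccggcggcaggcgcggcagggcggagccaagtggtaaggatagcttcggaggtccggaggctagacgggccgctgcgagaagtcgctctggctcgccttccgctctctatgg
Cox8b held TATAAA and 2 CpG dinucleotides at 48.3% GC, whereas Cox8a held 2 ETS core matches and 19 CpG at 56% GC. Cox7a1 held 7 CpG at 53% GC and Cox7a2 20 CpG at 56.7% GC, with no match to any motif searched. The median GC of promoters of protein-coding genes in the same table was 56.3%.

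Promoters were found for 73 of the 87 nuclear members, 60 of them subunits. The NRF1 motif GCGCATGCG was in 8 of the 60 (13.3%) and in 2.61% of 17491 protein-coding genes. The ETS core CCGGAAG was in 14 (23.3%, against 12.9%) and the YY1 core AAGATGGC in 10 (16.7%, against 3.57%). The ERR motif TCAAGGTCA was in 1 (1.67%, against 0.377%) and TATAAA in 8.33%, against 14.8%. Motifs were searched on both strands, no motif contains another, and a match is a run of letters, not a bound site.

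**Figure D5:**
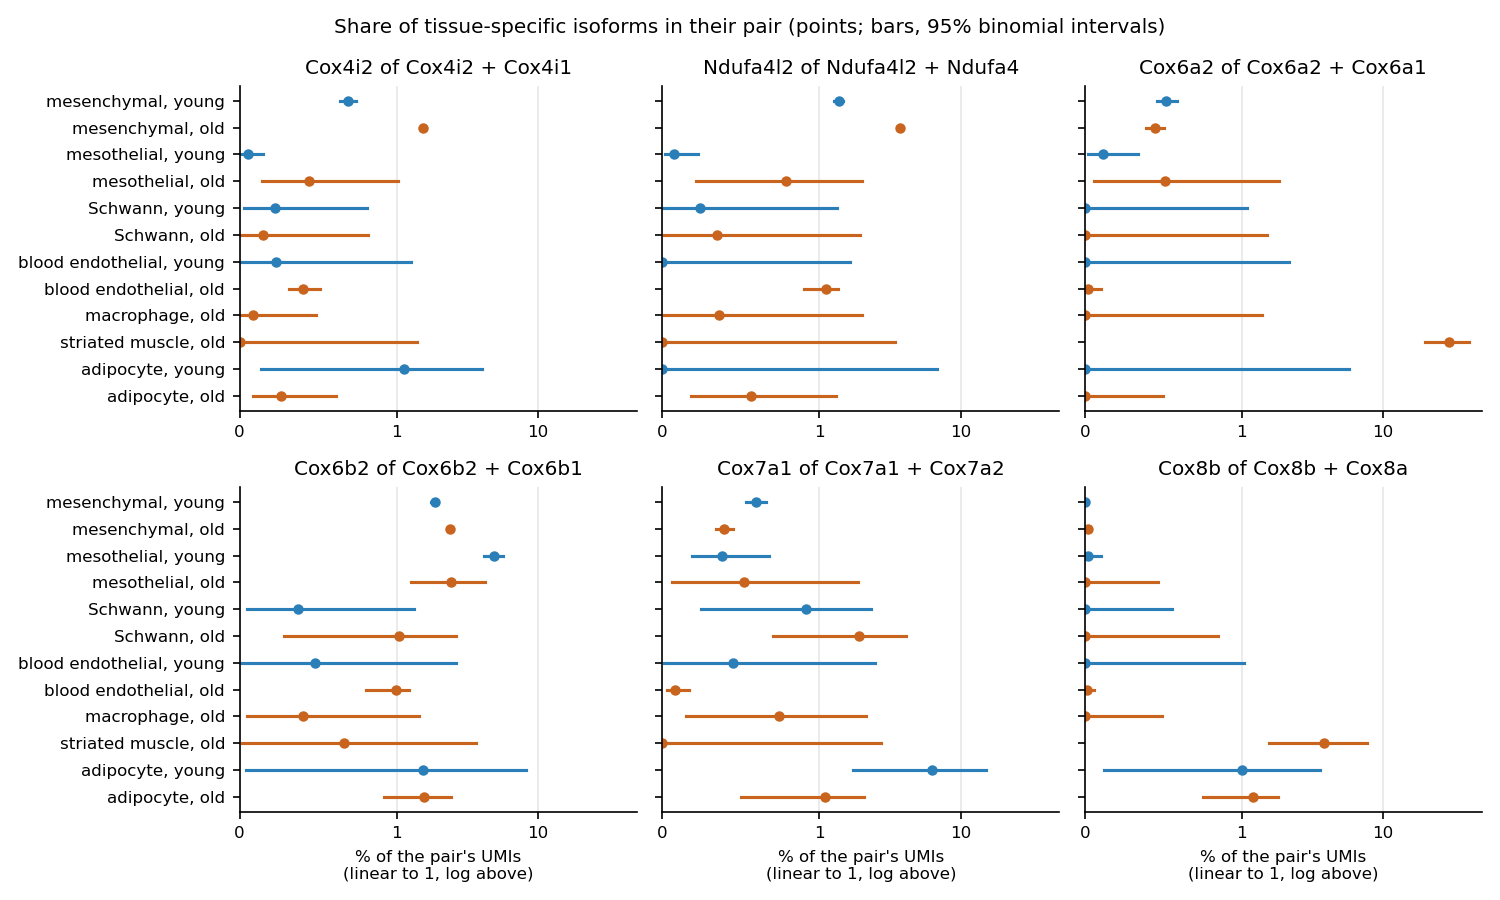
Share of each tissue-specific isoform among the UMIs of its pair, in percent (horizontal axis, linear to 1 and logarithmic above), by class and library, with exact 95% binomial intervals. Cox6a2 and Cox8b were highest in striated muscle (29.3% and 3.83%), Cox6b2 in young mesothelial cells (4.86%), and Ndufa4l2 and Cox4i2 were higher in old (3.73% and 1.53%) than in young mesenchymal cells (1.37% and 0.69%).

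Cells gated as mesothelial, the lining of the serous surface, carried more nuclear subunit transcripts in the young library, 28277 CPM, than in the old, 25184 CPM (log2 -0.17, -0.19 to -0.15). Of 69 subunits measured there, 1 was at least 1.5-fold higher and 6 lower, and 57 lay below 0. Over the 4855 genes with the same UMI minimum, not matched in depth, 11.5% were higher and 10.6% lower, and the median log2 ratio was -0.017. The mitochondrially encoded genes were lower too (26371 and 22353 CPM, log2 -0.24), led by mt-Atp8 (179 and 80.5 CPM, log2 -1.15) and mt-Atp6 (5023 and 3507 CPM, log2 -0.52). Cox6b2 was at 36.4 CPM young and 15.3 CPM old (163 and 12 UMIs, log2 -1.25), and made 4.86% (4.15% to 5.64%) and 2.44% of its pair. Uqcrb was at 319 and 187 CPM (log2 -0.78), and on the other side Ndufaf4 at 31.7 and 60.0 CPM (log2 0.92) and Ndufa1 at 169 and 258 CPM (log2 0.61).

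Cells gated as Schwann cells, the glia of peripheral nerves, differed little between libraries. Their nuclear subunits were at 27024 and 26023 CPM (log2 -0.054) and the mitochondrially encoded ones at 27882 and 27766 CPM (log2 -0.0060). Of 69 subunits 0 were 1.5-fold apart, beside 26.9% of the 4008 genes with the same UMI minimum. Those genes were not matched in depth, and genes with few UMIs pass 1.5-fold more easily by counting error. Among nuclear members with at least 100 UMIs there, Ndufb9 (log2 -0.44) and Uqcrb (-0.42) were lowest, Ndufaf8 (0.40) and Uqcrc2 (0.28) highest. Blood endothelial cells, 37 young and 1190 old, had nuclear subunits at 23605 and 24670 CPM (log2 0.064, 0.033 to 0.094). In the old library the nuclear subunits were 0.98-fold and the mitochondrially encoded ones 0.98-fold the mesenchymal level in blood endothelial cells. The isoforms were 0.31-fold, with Ndufa4l2 at 7.01 CPM and Cox4i2 at 4.99 CPM. Mesenchymal markers made 1466.1 CPM there and 5340.8 CPM in old mesenchymal cells. How much of the isoform level came from mesenchymal RNA was not tested.

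In the 100 old macrophages, mitochondrially encoded genes of complexes IV and I lay on opposite sides of the mesenchymal level. Nuclear subunits were at 22952 CPM, 0.92-fold the mesenchymal level, with 10 of 70 at least 1.5-fold lower and 1 higher. Over the 5153 genes with the same UMI minimum, not matched in depth, 35.1% were lower and 20.9% higher. Mitochondrially encoded complex IV genes were at 15446 CPM, 1.37-fold, led by mt-Co1 at 8592 CPM (log2 1.01, 0.97 to 1.04), whereas mitochondrially encoded complex I genes were 0.72-fold, with mt-Nd3 at 121 CPM (log2 -0.90). Among nuclear subunits Cox5a was at 502 CPM against 305 CPM in mesenchymal cells (log2 0.72) and Ndufa4 at 371 against 654 CPM (log2 -0.82). The ratio of mitochondrially encoded to nuclear UMIs was 2.09 for complex IV and 0.52 for complex I. For complex IV adipocytes were similar, at 1.97 old and 2.11 young, but for complex I old adipocytes were at 0.80.

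Other genes of the pathway were taken from lists and counted in old adipocytes against old mesenchymal cells, where 21% of all 5197 genes were at least 1.5-fold higher and 25.2% lower. A gene rare in mesenchymal cells, such as Ppargc1a or Chchd10, counted as measured only because it was high in adipocytes. The counts of higher genes among those measured are therefore raised by the UMI minimum. Of complex II, 4 of 4 genes were higher by that much, among them the flavoprotein gene Sdha (65.2 and 211 CPM, log2 1.69), and so were 9 of the 9 measured electron carriers (of 12 listed), such as Etfb (142 and 515 CPM, log2 1.86). Of the citrate cycle 12 of 13 were higher, and of fatty acid oxidation 10 of 10 measured (of 13 listed), led by Acadm (25.4 and 283 CPM, log2 3.48). Of assembly factors outside the prefixes 7 of 15 measured (of 29 listed) were higher and 1 lower. Of mitochondrial gene expression 0 of 4 measured genes (of 13 listed) passed. Of the regulators 3 of 4 measured (of 10 listed) were higher, of the supercomplex and stress factors 4 of 6 (of 9 listed). Of the inner membrane carriers 3 of 9 were higher and 1 was lower, the ADP/ATP carrier gene Slc25a4 (640.3 and 380.3 CPM, log2 -0.75). Chchd10, a protein of the intermembrane space, had 702 UMIs in old mesenchymal cells (6.51 CPM) and 1624 in old adipocytes (2129.8 CPM, log2 8.35). Ppargc1a, a coactivator of mitochondrial genes, had 140 and 31 UMIs (1.30 and 40.7 CPM, log2 4.97).

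Between the ages in mesenchymal cells, 32.1% of all genes with at least 20 UMIs were 1.5-fold apart, a share not matched in depth to the lists. Of complex II 0 of 4 genes, 0 of 12 electron carriers, 0 of 6 supercomplex and stress factors and 1 of 13 of the citrate cycle were 1.5-fold apart. So were 2 of 29 assembly factors outside the prefixes, 1 of 13 of mitochondrial gene expression, 1 of 8 inner membrane carriers and 3 of 8 regulators, 1 higher and 2 lower. Of fatty acid oxidation 4 of 12 were, 3 lower and 1 higher. Among the genes apart were Ucp2, an inner membrane carrier, at 73.6 CPM young and 26.5 CPM old (log2 -1.48), the oxidase assembly factor Sco2 at 14.0 and 26.7 CPM (log2 0.93) and the mitochondrial RNA polymerase Polrmt at 2.99 and 5.27 CPM (log2 0.82). Acadl, of fatty acid oxidation, was at 48.4 and 24.6 CPM (log2 -0.97). Ppargc1a, the 1 regulator that was higher beside the 2 that were lower, had 81 UMIs young and 140 old (log2 0.75).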

How the data were processed

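Single cells of perivascular fat were measured in 1 young and 1 old library (Chromium 3′ version 2, per the labels). The deposited values are raw UMI counts per gene and barcode, written by Cell Ranger 3.0.1 per the file headers, on mm10 per the submitters' processing notes; the sources used here name neither strand use nor annotation. Nuclear members have processed pseudogenes that could share reads with them. Barcodes needed 500 or more detected genes and no more than 10% mitochondrial UMIs. Scrublet (scanpy 1.11.5) marked 0 cells by its own threshold, so the highest scores were removed, 0.8% per 1000 cells (1302 young, 1504 old). A cell was put in a class if it held at least 3 distinct markers of that class and of no other non-mesenchymal class; 31 old cells with markers of several and 501 young and 329 old cells with too few were left out. Counts were summed per class and library, scaled to CPM, and given exact Poisson or Clopper-Pearson intervals (scipy 1.17.1), log2 ratios an exact conditional Poisson interval; a 0 was set to a floor of 3 counts per class and library. A member was counted as higher or lower at 1.5-fold; in classes other than mesenchymal, a gene needed 20 UMIs seen or expected in the smaller sum. Intervals were checked on counts simulated with the Poisson error they assume, so the check covers the calculation only. It leaves out the uneven spread of UMIs over cells.

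Named were all mitochondrially encoded members, the isoform pairs, the extremes per complex or class (members with at least 200 UMIs in mesenchymal cells, 20 in adipocytes and 100 in other classes), and the widest genes of each list; Ndufv1, Ndufv2, Ndufs7, Cox7b, Cox5a, Ucp1 and Malat1 were chosen after their values were seen. The members, lists and class limits were chosen with earlier results of these data known. Alternatives for the mitochondrial limit, doublets, gene minimum, scaling, gates, cycling cells and UMI minimum were computed. Free RNA was not removed: Adipoq was at 3.22 CPM in old mesenchymal cells, 1.66 CPM in old blood endothelial cells and 17.5 CPM in old macrophages. Symbols and coordinates are those of GENCODE vM21 on GRCm38 (mm10).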

Additional observations from a re-analysis of the deposited data

Results flagged for a closer look

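Scaled to all UMIs of a class, nuclear subunits lay in opposite directions between the libraries in different classes. Their log2(old/young) was 0.086 in mesenchymal cells, -0.17 in mesothelial cells (394 young and 83 old) and -0.054 in Schwann cells (91 and 95), with counting intervals on opposite sides of 0. In blood endothelial cells (37 and 1190) it was 0.064. The mesenchymal value was -0.035 with median-of-ratios size factors. The median log2(old/young) over all genes was 0.13 in mesenchymal, -0.017 in mesothelial and 0.0067 in Schwann cells. In each of these classes the summed subunits lay below it, so their opposite signs depend on the scaling. In blood endothelial cells the median was -0.034 and the subunits lay above it. Each class has 1 library per age, and the difference was not tested.

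Cox6b2 had a log2(old/young) of 0.56 in mesenchymal cells and -1.25 in mesothelial cells, the latter from 163 and 12 UMIs, and this difference was not tested either.

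Cells that the mitochondrial limit kept out of the main values held most Cox8b. The 60 old adipocytes above 10% mitochondrial UMIs held 84 Cox8b UMIs and the 5 young ones 10, while the 136 old and 158 young mesenchymal cells above the limit held 0, among 340613 and 419156 UMIs in all. The same 60 old adipocytes held 8 UMIs of Ucp1. Malat1 lay between 19019 and 23843 non-mitochondrial CPM over all 5 bins of mitochondrial share in old adipocytes.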

How the results depend on the processing

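No paired analysis was possible because each age is 1 library. For the nuclear subunits of mesenchymal cells, log2(old/young) was 0.09133 without doublet removal, 0.08076 scaled to UMIs that are not mitochondrially encoded, 0.08994 with stricter gates, 0.0824 without cycling cells and -0.03549 with median-of-ratios size factors, the change of sign following from the scaling, which lowers all values alike. For the mitochondrially encoded members it was -0.2133 with no mitochondrial limit, -0.2278 at 20%, -0.219 without doublet removal, -0.2189 with at least 1000 genes, -0.2299 scaled to other UMIs, -0.3462 with size factors, -0.2324 with stricter gates and -0.2032 without cycling cells. In adipocytes against mesenchymal cells the nuclear log2 ratio was 1.024 with no limit, 0.5551 at 5%, 1.027 at 20%, 0.8479 without doublet removal, 0.995 scaled to other UMIs, 0.9156 with size factors and 1.049 with stricter gates. The mitochondrially encoded ratio was 1.805, 0.6213, 1.73, 1.236, 1.364, 1.284 and 1.449 in that order, and 1.335 with at least 1000 genes. The count of nuclear members 1.5-fold apart between ages in mesenchymal cells, 5 as reported, was 4 to 7. Of 364 values of the other results 361 kept their sign and 3 did not: complexes III, IV and V under size factors. The 94 values of the 11 results at least 1.5-fold apart all kept theirs. Cox8b in adipocytes has no value at the 5% limit, where 0 UMIs remain. The 8 young adipocytes and 14 striated muscle cells limit what those classes can show.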
